A study of Homo sapiens with 19 samples.

Results

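The splicing factors ESRP1 and ESRP2, the cell adhesion genes CDH1, CDH2, CTNNB1, CTNND1, CD44 and EPCAM, and the repressors ZEB1 and ZEB2 were followed as a group of 10 genes through 19 human RNA-seq libraries. The genes were picked by name, out of 22760 genes with reads on annotated introns, and every annotated intron of each was read, although introns also annotated to another gene do not count towards a gene's level. They have 323 annotated introns in GENCODE release 29 on GRCh38, of which 244 carried at least 1 read in some library. The deposited tables give the number of reads that crossed each splice junction, so the level of a gene is here its spliced reads, expressed as counts per 1000000 junction reads of the library (CPM) unless another scale is named.

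ESRP1 and ESRP2 are RNA-binding proteins of epithelial cells that control which exons are kept in adhesion, polarity and signalling genes. Epithelial cells hold together through E-cadherin (CDH1), whose tail binds β-catenin (CTNNB1) and p120 catenin (CTNND1). In the epithelial to mesenchymal transition, ZEB1 and ZEB2 repress CDH1 and the ESRP genes, N-cadherin (CDH2) replaces E-cadherin, and exons of CD44 and CTNND1 switch to mesenchymal forms. Human pluripotent stem cells grow as tight epithelial colonies that carry E-cadherin and EPCAM.

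The RNA was total RNA depleted of ribosomal RNA, from 3 cell lines. The melanoma line A375 was read as whole-cell RNA, taken before fractionation, and as its nuclear and cytoplasmic fractions, with 1 library of each. HEK293 cells, derived from embryonic kidney, gave 1 library of total RNA. Wild-type HUES66, human embryonic stem cells grown in StemFlex on Geltrex, also gave 1. The other 14 libraries came from HUES66 cells given doxycycline at 1 ug/ml for 24, 48 or 96 hr. The labels name them as control (3 libraries), RBFOX2 total knockdown (3), RBFOX2 N-short knockdown (4) and RBFOX2 N-long knockdown (4); the series title names Cas13d, an RNA-guided enzyme that cuts RNA, as the means. RBFOX2 is itself a splicing factor. The labels do not say which transcripts the N-short and N-long knockdowns target, nor whether the libraries came from separate cultures, so p-values measure the spread between these libraries, which may be technical. The 14 libraries fall into 4 sets: 24 hr replicate 1 (no control), 24 hr replicate 2 (no total knockdown), 48 hr and 96 hr. Time and library set cannot be told apart. By its description and library series, the wild-type HUES66 library may be the missing control of the 24 hr replicate 1 set.

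The treated libraries held 9622841 to 14625040 junction reads, wild-type HUES66 27937149, HEK293 9605334, and A375 8412005 (total), 6499183 (nuclear) and 22344622 (cytoplasmic). RBFOX2 stood at 126.4 to 134.3 normalised CPM in the controls, 50.7 to 81.8 in the total knockdown, 114.3 to 123.8 in N-short and 77.9 to 90.7 in N-long, and its edgeR log2 fold changes were -0.82 (SE 0.08, adjusted p = 1.12e-08), -0.06 (adjusted p = 0.998) and -0.57 (SE 0.07, adjusted p = 3.43e-05). The pluripotency markers POU5F1, NANOG, LIN28A, DPPA4 and L1TD1 summed to between 1748 and 2253 CPM in the HUES66 libraries, 0.713 in A375 and 0.729 in HEK293. In A375 the melanocyte lineage factors SOX10 and MITF stood at 100.3 and 39.0 CPM, whereas PMEL and DCT stood at 0.476 and 0.357, and MLANA and TYR had no read on an intron assigned to them. Of that list, PMEL was read in HUES66 too, at 34.8 to 69.3 CPM. The mesendoderm markers TBXT, MIXL1, EOMES and GATA6 summed to at most 2.04 CPM in any HUES66 library, and the neuroectoderm marker PAX6 stood at 0.288 CPM or less. SOX17 and SOX1, also listed for these tissues, and SOX2, listed for pluripotency, had no read on an intron assigned to them either. For these genes, as for MLANA and TYR, no level can be given.

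Sequences are shown for the members whose splice choices are compared below, CD44, the hyaluronan receptor, and CTNND1. CD44 has 9 variable exons between its constitutive exons 5 and 16. The standard form joins exon 5 directly to exon 16, and the epithelial form keeps v8, v9 and v10. The junctions below show the last 15 bases of exon 5 in lower case, followed in capitals by the beginning of the exon joined to it, as read on the plus strand of GRCh38 chromosome 11.
Exon 5 to exon 16: gaatccctgctaccaGAGACCAAGACACAT
Exon 5 to v8: gaatccctgctaccaATATGGACTCCAGTC
Exon 5 to v10: gaatccctgctaccaATAGGAATGATGTCA
The exons kept in HUES66 follow in full. Their 396 bases are a whole number of codons, as is each exon on its own (34, 30 and 68 codons).
CD44 v8, chr11:35208105-35208206: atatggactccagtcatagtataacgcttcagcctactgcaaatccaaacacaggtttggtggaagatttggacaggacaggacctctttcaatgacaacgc
CD44 v9, chr11:35209965-35210054: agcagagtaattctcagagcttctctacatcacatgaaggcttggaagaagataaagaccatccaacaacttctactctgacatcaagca
CD44 v10, chr11:35211246-35211449: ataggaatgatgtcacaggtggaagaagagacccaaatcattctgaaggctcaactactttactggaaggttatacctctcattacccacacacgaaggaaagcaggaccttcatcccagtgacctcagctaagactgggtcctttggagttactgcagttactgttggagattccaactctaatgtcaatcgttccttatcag

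CTNND1 has several start codons. Exon 3 carries the first of them, which opens the long p120 catenin typical of mesenchymal cells. Exon 3 can begin at a long acceptor, or at short acceptors 107 and 109 bases further on that lie past this start codon. Over all 19 libraries, 456 reads used the former and 3 the latter. The 30 coding bases from that start codon are shown here in lower case where only the long acceptor keeps them (13 bases) and in capitals where the form that begins 107 bases further on has them too.
CTNND1 exon 3, chr11:57791479-57791508: atggacgactcagAGGTGGAGTCGACCGCC
The small exons of CTNND1, of which exon C recurs in the knockdown tests, follow in capitals between the 15 last bases of the exon before and the 15 first bases of the exon after. Exon C encodes 6 residues within the armadillo repeat region, and exons A and B encode 21 and 29 residues nearer the carboxyl end.
CTNND1 exon C, chr11:57806461-57806478: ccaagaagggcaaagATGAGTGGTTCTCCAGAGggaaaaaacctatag
CTNND1 exon A, chr11:57814311-57814373: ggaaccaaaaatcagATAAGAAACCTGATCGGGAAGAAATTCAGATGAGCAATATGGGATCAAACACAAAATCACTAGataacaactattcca
CTNND1 exon B, chr11:57815915-57816001: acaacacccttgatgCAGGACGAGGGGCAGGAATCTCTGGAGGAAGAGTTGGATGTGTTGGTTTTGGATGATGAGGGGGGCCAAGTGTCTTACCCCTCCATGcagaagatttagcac

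The epithelial genes were read in HUES66, were at or near 0 in A375, and differed among themselves in HEK293. With 1 library of A375 and of HEK293, no test between lines was possible, and the intervals given cover counting error only. In bulk RNA, fewer cells of a type and less RNA per cell cannot be told apart. In wild-type HUES66, 8 of the 10 genes lay at least 2-fold from A375, 4 higher (ESRP1, ESRP2, CDH1 and EPCAM) and 4 lower (CDH2, CD44, ZEB1 and ZEB2). Over the 13845 genes with at least 20 reads in the pair of libraries, 23.1% were at least 2-fold higher and 22.2% at least 2-fold lower.

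**Figure D1:**
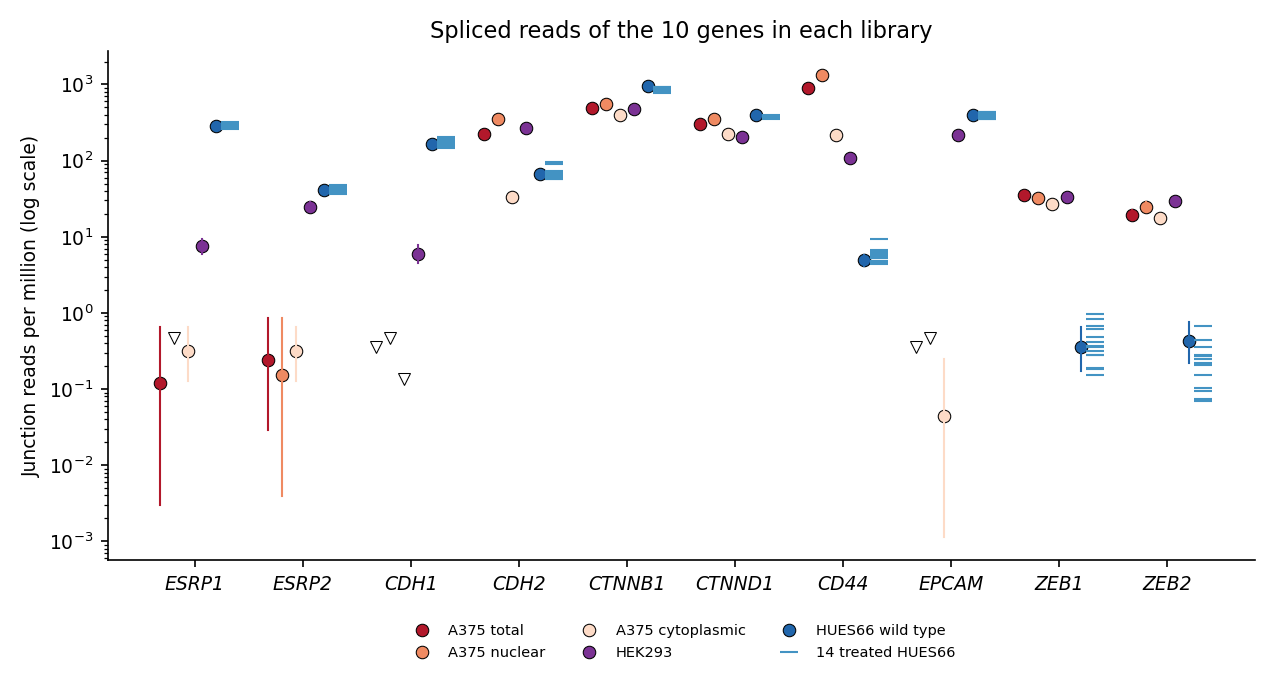
CPM of junction reads (log scale) of the 10 genes in the A375 RNAs (total, nuclear, cytoplasmic), in HEK293 and in wild-type HUES66 (points, with exact 95% Poisson intervals), and in the 14 treated HUES66 libraries (dashes). Open triangles mark libraries with 0 reads and are drawn at the level of 3 reads; a dash of a treated library with 0 reads is drawn in the same way. ESRP1, CDH1 and EPCAM lie near or below 0.5 CPM in A375 and above 140 CPM in HUES66, while ZEB1 and ZEB2 lie below 1 CPM in HUES66.

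ESRP1 (chr8:94641074-94707466) stood at 284 CPM in wild-type HUES66 (95% interval 278 to 291), 7.50 in HEK293 (5.87 to 9.44) and 0.119 in A375, where it had 1 read. The treated HUES66 libraries lay between 262 and 325 CPM with a median of 293.5. Its relative ESRP2 (chr16:68229111-68238102) stood at 41.6 CPM in wild-type HUES66 (39.3 to 44.1), 24.9 in HEK293 (21.8 to 28.2) and 0.238 in A375 (2 reads). ESRP1 was thus 37.9-fold higher in HUES66 than in HEK293 (30.1 to 48.5), whereas ESRP2 was 1.67-fold higher (1.45 to 1.93). To compare the genes with each other, reads were taken per constitutive intron, those shared by all basic coding transcripts that span them. On that scale HUES66 held 21.9 CPM per intron of ESRP1 and 2.88 of ESRP2, and HEK293 held 0.568 of ESRP1 and 1.68 of ESRP2, so the order of the pair was opposite in these lines.

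CDH1 (chr16:68737225-68835548) stood at 165 CPM in wild-type HUES66 (160.0 to 169.6), between 146 and 202 in the treated libraries (median 172) and at 5.93 in HEK293 (4.50 to 7.69). A375 had 0 reads, which allows up to 0.357 CPM, so HUES66 was at least 462-fold and HEK293 at least 16.6-fold higher. With constitutive introns alone, the ratios at 3 reads were 265-fold and 10.8-fold. CDH2 (chr18:27950966-28177446) had the opposite order, with 225 CPM in A375, 272 in HEK293 and 67.0 in HUES66, and 56.9 to 95.8 in the treated libraries. Per constitutive intron, CDH1 exceeded CDH2 in HUES66 (10.5 against 4.47 CPM), and CDH2 exceeded CDH1 in HEK293 (18.1 against 0.428) and A375 (14.96 against 0). HUES66 therefore held reads of both cadherins, and its CDH2 was 3.35-fold below A375 (3.14 to 3.57) and 4.05-fold below HEK293 (3.82 to 4.30).

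EPCAM (chr2:47345158-47387601), a homophilic adhesion molecule of epithelia and stem cells, stood at 394 CPM in HUES66, 217 in HEK293 and 0 in A375 total RNA. The treated libraries lay between 350.2 and 434 CPM with a median of 393. HUES66 was at least 1105-fold above A375 and 1.82-fold above HEK293 (1.73 to 1.91). The catenins that bind the cadherin tail were read in every line. CTNNB1 (chr3:41194741-41260096) stood at 495 CPM in A375, 473 in HEK293 and 944 in wild-type HUES66, and at 766 to 929 (median 870) in the treated libraries. CTNND1 (chr11:57753243-57819546) stood at 306, 203 and 393 CPM in the same lines and at 356 to 392 in the treated libraries. Neither catenin reached a 2-fold difference between any pair of lines per total junction reads. With TMM factors over all 19 libraries, CTNNB1 was 2.03-fold higher in HUES66 than in A375, which raised the members at least 2-fold higher there from 4 to 5.

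CD44 (chr11:35138870-35232402) and the ZEB genes ran the other way. CD44 stood at 910 CPM in A375 (890 to 931), 108 in HEK293 and 4.94 in HUES66 (138 reads, 4.15 to 5.84), where it was 184-fold lower than in A375 (156 to 220). Treated HUES66 libraries held 4.41 to 9.45 CPM of CD44, with a median of 5.55. ZEB1 (chr10:31318495-31529814) stood at 35.4 CPM in A375, 33.7 in HEK293 and 0.358 in HUES66 (10 reads), and ZEB2 (chr2:144364364-144524583) at 19.3, 29.05 and 0.430 (12 reads). HUES66 was 99.0-fold below A375 for ZEB1 (53.1 to 208.5) and 44.8-fold below for ZEB2 (25.0 to 88.6). The treated libraries held at most 0.960 CPM of ZEB1 and 0.680 of ZEB2.

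HEK293 combined features of both lines. It held ESRP2 and EPCAM reads as HUES66 did, and its CDH2, ZEB1 and ZEB2 were close to those of A375 (ratios of 1.21, 0.952 and 1.51). Against A375, 4 members were at least 2-fold higher in HEK293 (ESRP1, ESRP2, CDH1 and EPCAM) and 1 was lower (CD44, 8.39-fold, 7.86 to 8.96); over all 12602 genes with enough reads, 19% were higher and 19.3% lower. Against HEK293, 2 members were at least 2-fold higher in HUES66 (ESRP1 and CDH1, the latter 27.8-fold, 21.4 to 36.7) and 4 were lower (CDH2, CD44, ZEB1 and ZEB2), over a background of 20.4% and 20.0%. With TMM factors over all 19 libraries in place of total junction reads, 5 members were at least 2-fold higher, as CTNNB1 (2.23-fold), CTNND1 (2.17-fold) and EPCAM (2.03-fold) passed that line too.

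Lists of related genes, chosen with earlier results of these data known, were described in the same way. Of 40 other epithelial junction and identity genes with enough reads, 30 were at least 2-fold higher and 3 at least 2-fold lower in HUES66 than in A375, with a median log2 ratio of 3.01, against 0.02 over all genes. GRHL2, a transcription factor that maintains epithelial identity, and the keratin KRT19 stood at 60.5 and 71.1 CPM in HUES66 and had 0 reads in A375 (at least 170-fold and 199-fold higher). The tight junction protein occludin (OCLN) stood at 37.4 CPM against 0.119. The lowest ratios were those of desmocollin 3 (DSC3, 2.79 against 23.7 CPM), the receptor ERBB3 (107 against 409 CPM) and the transcription factor ELF3 (2.08 against 6.42 CPM).

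Of 26 mesenchymal and transition genes, 16 were at least 2-fold lower and 6 at least 2-fold higher in HUES66 (median log2 ratio -2.31). ITGB3, an integrin subunit, stood at 0.0358 CPM (1 read) in HUES66 against 15.7 in A375, and CDH13, a cadherin without a cytoplasmic tail, stood at 0.680 against 233 CPM. NT5E, an ectonucleotidase, stood at 0.251 against 43.1 CPM. The list was not uniform, since the fibrillar collagens COL1A1 (161.5 against 7.61 CPM) and COL1A2 (254 against 0.119 CPM) and the surface glycoprotein THY1 (127 against 0.594 CPM) were higher in HUES66. Of 15 cadherin and catenin relatives, 8 were at least 2-fold higher in HUES66 and 0 were lower (median log2 ratio 1.14). P-cadherin (CDH3) stood at 212 against 1.07 CPM, αN-catenin (CTNNA2) at 12.4 against 0.119 and CDH4 at 8.23 against 0.594. At the other end were CDH6 (1.25 against 1.43 CPM), the neural p120 relative CTNND2 (19.5 against 16.4) and the plakophilin PKP3 (22.2 against 18.4).

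CD44 was spliced mostly to the standard form in A375 and HEK293, while v8, v9 and v10 were each mostly included in HUES66. Each exon was read on its own, so a form that holds v8, v9 and v10 together was not measured. Of 711 reads that left exon 5 in A375 total RNA, 578 joined exon 16 (81.3%, Wilson 95% interval 78.3 to 84.0), 78 joined v10 (10.97%, 8.88 to 13.5) and 7 joined v8 (0.985%, 0.478 to 2.02). HEK293 gave 88 of 100 reads to exon 16 (88.0%, 80.2 to 93.0) and 1 to v8. In wild-type HUES66, 11 of only 16 such reads joined v8 (68.8%, 44.4 to 85.8) and 3 joined exon 16 (18.8%, 6.59 to 43.0). The 14 treated HUES66 libraries, pooled because each held few reads, gave 51 of 91 reads to v8 (56.0%, 45.8 to 65.8) and 22 to exon 16 (24.2%, 16.5 to 33.9), so wild-type and treated HUES66 both lay apart from A375 and HEK293 in the share joining v8. Pooled by knockdown, v8 took 11 of 19 reads in the controls (57.9%, 36.3 to 76.9), 13 of 31 in the total knockdown (41.9%, 26.4 to 59.2), 11 of 20 in N-short (55.0%, 34.2 to 74.2) and 16 of 21 in N-long (76.2%, 54.9 to 89.4). Exon 16 took 7, 8, 6 and 1 of these reads, which is 36.8% in the controls (19.2 to 59.0) and 4.76% in N-long (0.846 to 22.7). The intervals of the knockdowns overlap each other for both shares, and no test was made on the pooled reads.

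**Figure D2:**
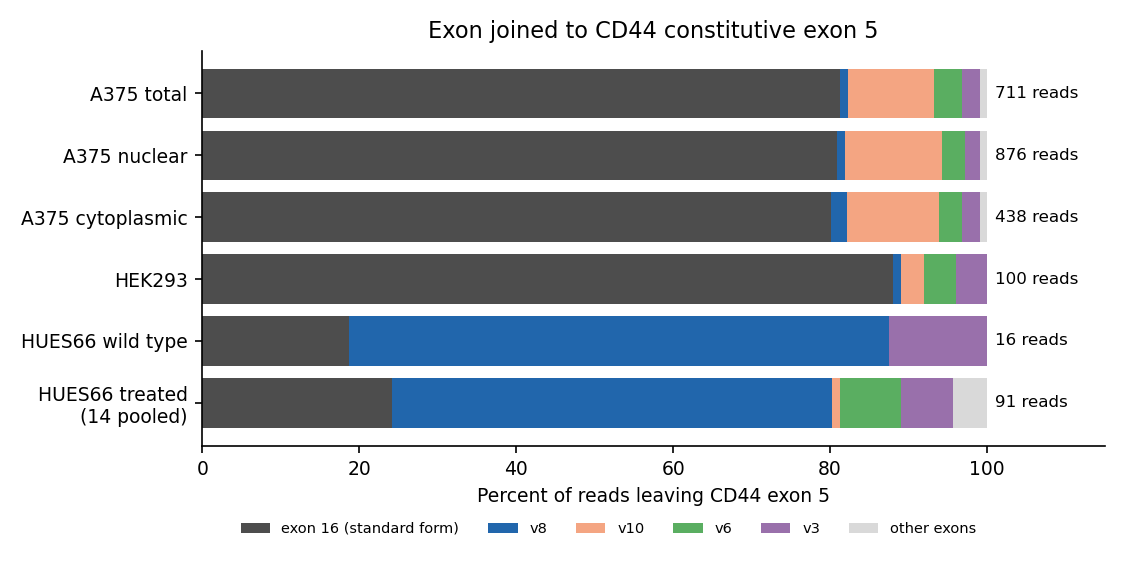
Share of the reads leaving CD44 exon 5 (percent, horizontal axis) that joined exon 16 directly, v8, v10, v6, v3 or another exon, for the A375 RNAs (total, nuclear, cytoplasmic), HEK293, wild-type HUES66 and the 14 treated HUES66 libraries pooled, with the number of reads at the right. The exon 16 share is 80.1% to 88.0% in A375 and HEK293, and v8 takes 68.8% and 56.0% in the HUES66 bars.

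Inclusion was computed for each variable exon from the mean of its entering and leaving junctions against the junctions that span it. In the treated libraries pooled, v8 was included in 72.0% of transcripts so read (62.2 to 80.2), v9 in 76.0% (66.8 to 83.3) and v10 in 75.9% (67.1 to 83.0), while v3, v6 and v7 lay between 6.67% and 6.82%, v2 and v4 had 1 read each, on only 1 of their junctions, and v5 had 0 (upper bound 4.14%). In wild-type HUES66, v8, v9 and v10 had 80%, 75% and 70% inclusion from 10 to 15 reads. In A375 total RNA the values were 4.42% for v8 (3.13 to 6.20), 4.14% for v9 and 21.2% for v10 (18.4 to 24.2). HEK293 had 2.11% for v8, 1.06% for v9 and 11.8% for v10 (6.86 to 19.5). Thus v10 had the highest inclusion of the variable exons in A375 total RNA, where 78 of the 101 reads that entered it came from exon 5. Its 2 junctions were unequal there, with 101 reads entering and 220 leaving, and taking the smaller of them lowered v10 to 14.5%. In HEK293, v10 had 4 reads entering and 21 leaving, and its interval overlaps that of v3 (4.95%, 2.13 to 11.1). With the smaller junction v10 was 4.26% and v3 4.0% in HEK293, so v10 does not stand out from v3 there on the reads entering.

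In CTNND1, A375 and HEK293 took the long acceptor of exon 3 nearly always, and HUES66 used the short acceptors more. Of the reads entering exon 3, the short acceptors took 3 of 70 in A375 total RNA (4.29%, 1.47 to 11.9), 2 of 44 in HEK293 (4.55%, 1.26 to 15.1) and 76 of 257 in wild-type HUES66 (29.6%, 24.3 to 35.4). The treated libraries lay between 17.6% and 31.8% (median 26.1%), all above the A375 and HEK293 values. Exon 3 as a whole was entered by 43.5% of the reads leaving the exons upstream of it in A375 (36.1 to 51.2), 47.3% in HEK293 (37.5 to 57.4) and 37.3% in HUES66 (33.8 to 40.97), with 26.6% to 44.4% in the treated libraries. The form that holds the first start codon, entry by the long acceptor, accordingly took 41.6% of reads in A375 (34.3 to 49.3), 45.2% in HEK293 (35.4 to 55.3) and 26.3% in wild-type HUES66 (23.1 to 29.7). The treated libraries lay between 18.2% and 35.3% (median 25.3%) on this measure, overlapping the lower part of the A375 interval. Most reads of the long acceptor (57 of 67 in A375 and 158 of 181 in HUES66) fall on an intron that is also annotated to the TMX2-CTNND1 read-through transcript and cannot be assigned between them.

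The remaining CTNND1 exons differed little between the lines. Exon A was included at 97.1% in A375, 99.0% in HEK293 and 97.4% in HUES66. Exon B, a rarely used exon, had 0 inclusion reads in each line, against 155, 114 and 691 skipping reads. Exon 4 (72 bases, chr11:57794010-57794081) was included at 81.7%, 85.1% and 80.2%. Exon C was included at 1.71% in A375 (0.47 to 6.02), 4.30% in HEK293 (1.69 to 10.5) and 6.54% in HUES66 (4.74 to 8.96), with overlapping intervals.

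**Figure D3:**
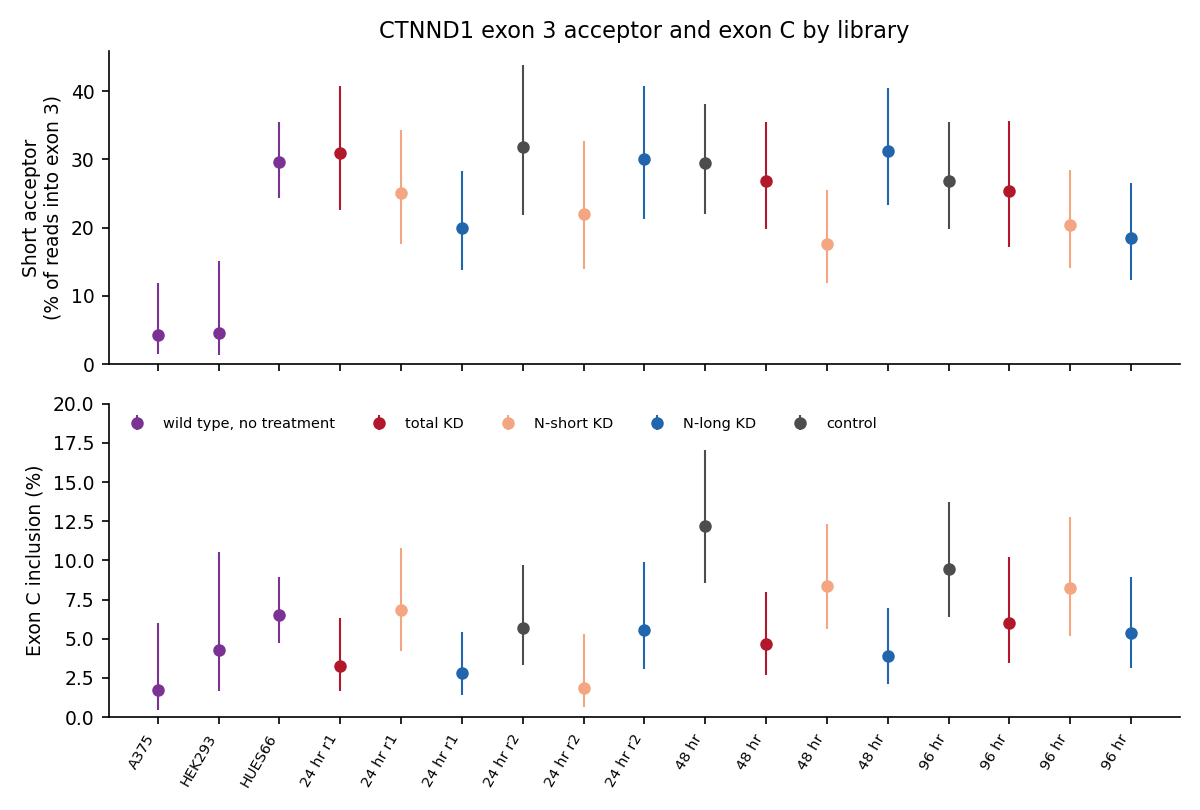
CTNND1 splicing in A375 total RNA, HEK293, wild-type HUES66 and the 14 treated HUES66 libraries (horizontal axis: line or time and replicate; colours: knockdown), with Wilson 95% intervals. The upper panel gives the percent of reads entering exon 3 by a short acceptor, which is 4.29% and 4.55% in A375 and HEK293 and at least 17.6% in each HUES66 library; the lower panel gives the inclusion of exon C in percent, highest in the 48 hr control at 12.2%.

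Cassette exons of genes known from other work for ESRP-responsive splicing were compared between wild-type HUES66 and A375. Inclusion is the percent of inclusion plus skipping reads. The exons were taken by gene name, whether or not each is itself known to respond. The genes were listed with earlier results of these data known, and several exons share a gene. The shares below are therefore descriptions. Of 23 such exons in 12 genes with at least 20 reads in both libraries, 9 had Wilson intervals that did not overlap (39.1%), against 10.3% of all 5209 cassette exons, and 5 of the 9 were higher in HUES66. CTNND1 supplied 4 of the 23, and 0 of its exons were among the 9. They include the exon 3 form that begins at the rarest acceptor, whose inclusion reads came from the downstream junction that all forms of exon 3 share. That cassette measure therefore cannot show the acceptor difference described above. The 63-base exon of ENAH, an actin regulator, was included at 75.0% in HUES66 (72.3 to 77.5), 31.6% in HEK293 and 2.56% in A375 (1.00 to 6.41). The 93-base exon of the kinase SLK had 86.9% in HUES66, 2.20% in HEK293 and 0% of the A375 reads (upper bound 4.64%), and the 78-base exon of RALGPS2 had 85.4%, 12.1% and 7.55%. Exons of NUMB (144 and 33 bases, 75.9% and 73.8% in HUES66 against 21.7% and 48.5% in A375) were also higher. Lower in HUES66 were the 130-base exon of ITGA6, a laminin receptor subunit (8.61% against 72.8%), the 72-base exon of LRRFIP2 (12.5% against 84.8%), the 57-base exon of INF2 (7.79% against 48.5%) and the 108-base exon of OSBPL3 (47.4% against 98.3%).

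**Figure D4:**
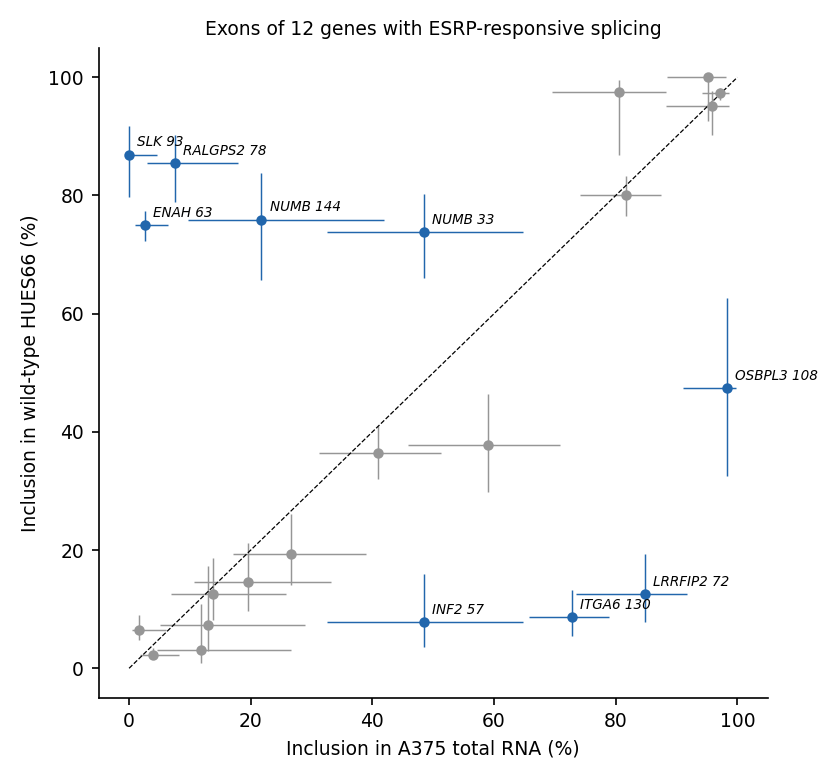
Inclusion (percent) of 23 cassette exons of 12 genes with ESRP-responsive splicing in A375 total RNA (horizontal) and wild-type HUES66 (vertical), with Wilson 95% intervals; labels give the gene and the exon length in bases, the dashed line marks equal inclusion, and blue points have intervals that do not overlap. The 9 blue points lie both above the line (5, among them ENAH, SLK and RALGPS2) and below it (4, among them ITGA6 and LRRFIP2).

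Between the fractions of A375, CDH2 and CD44 reads were higher in the nucleus. CDH2 stood at 348 CPM in nuclear and 32.8 in cytoplasmic RNA, a ratio of 10.6 (9.73 to 11.5), and CD44 at 1347 and 214 CPM, a ratio of 6.29 (6.07 to 6.52). These were 2 of the 6 members with enough reads, and 0 were at least 2-fold lower; over all 12759 genes, 22.6% were at least 2-fold higher in the nucleus and 20.0% at least 2-fold lower. CTNND1 (ratio 1.55, 1.47 to 1.62), CTNNB1 (1.38, 1.33 to 1.44), ZEB2 (1.38, 1.14 to 1.66) and ZEB1 (1.19, 1.01 to 1.39) lay closer to 1. The splicing of CD44 was alike in the fractions, with 81.3%, 80.9% and 80.1% of exon 5 reads joining exon 16 in total, nuclear and cytoplasmic RNA. The epithelial members stayed at or near 0 in both fractions, with 0 and 7 reads of ESRP1, 1 and 7 of ESRP2, 0 and 0 of CDH1, and 0 and 1 of EPCAM in nuclear and cytoplasmic RNA.

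The treated HUES66 libraries were fitted together with edgeR's quasi-likelihood test, with terms for library set and knockdown and Benjamini-Hochberg adjustment over the 13628 genes tested, of which 9 are members (ZEB2 had too few reads). Values below are CPM after TMM normalisation. No member passed in the total knockdown, against 2.2% of all genes tested. DESeq2 called 0 members, with a total over all genes of similar size to edgeR's. An unadjusted edgeR p under 0.05 was found for 4 of the 9 members (ESRP2, CTNNB1, CD44 and EPCAM) and for 1767 of the 13628 genes. In N-short (0.0% of all genes called), N-long (0.022%) and N-long against N-short (0.0147%), 0 members passed and 0 had an unadjusted p under 0.05. DESeq2 called 0 members there, and 1 gene of all in N-long. With so few genes called, 0 members is near the share of all genes. Over all genes, 537, 594 and 693 had an unadjusted p under 0.05 in these contrasts. The knockdowns share their controls, so their values below are not independent of each other.

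ESRP1 stood at 311, 275 and 350.5 normalised CPM in the controls at 24, 48 and 96 hr and at 292, 278 and 338 in the total knockdown, groups that overlap. Its log2 fold changes were -0.03 (SE 0.04) for total, -0.04 (SE 0.04) for N-short and 0.00 (SE 0.04) for N-long, with 95% bounds within -0.11 and 0.07 in each of these 3 contrasts. CDH1 stood at 211, 181 and 170 in the controls and at 174, 177 and 175 in the total knockdown, with log2 fold changes of -0.01 (SE 0.05), -0.05 (SE 0.04) and 0.00 (SE 0.04). CDH2 (-0.11, SE 0.06, adjusted p = 0.455 by edgeR) and CTNND1 (-0.07, SE 0.04, adjusted p = 0.407) also missed the threshold in the total knockdown. ZEB1, with at most 11 reads in a treated library, had a log2 fold change of -0.59 with an SE of 0.68 there, too wide to place a change of either direction.

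The member closest to the threshold in the total knockdown was CD44. It stood at 4.70, 5.51 and 5.82 normalised CPM in the controls and at 5.90, 6.86 and 10.2 in the total knockdown at 24, 48 and 96 hr. All 3 knockdown values lay above the 3 controls, the 24 hr knockdown has no control in its own set, and the 96 hr library was the highest of the 14. The edgeR log2 fold change was 0.58 (SE 0.16, adjusted p = 0.0522, higher in 2 of 2 sets), and its alternatives gave adjusted p of 0.037 (no filter on low counts) to 0.924. The highest came from counting constitutive introns alone, where the log2 fold change was 0.15, and DESeq2 gave CD44 no adjusted p. Without the 24 hr replicate 1 N-short library it was 0.0461 at a log2 fold change of 0.60. EPCAM stood at 385, 362 and 419.5 in the controls and at 439, 413 and 468 in the total knockdown, so the groups overlap. Its edgeR log2 fold change was 0.15 (SE 0.04, adjusted p = 0.0541), and it passed the threshold with no filter on low counts (0.00313), with constitutive introns alone (0.0329), or when the 24 hr total knockdown (0.0012), either 24 hr replicate 1 isoform knockdown (0.0278 without N-long, 0.0479 without N-short) or the 96 hr N-short library (0.0445) was left out. Over all 20 alternatives, the adjusted p of EPCAM ran from 0.0012 to 0.331. ESRP2 had 45.2, 39.8 and 39.1 in the controls and 50.3, 46.7 and 46.7 in the total knockdown, groups that do not overlap, with a log2 fold change of 0.23 (SE 0.07, edgeR adjusted p = 0.0877). CTNNB1 had -0.09 (SE 0.03, edgeR adjusted p = 0.145). With wild-type HUES66 added as the control of the 24 hr replicate 1 set, ESRP2 (adjusted p = 0.0447), CTNNB1 (0.033) and EPCAM (0.0128) passed edgeR's threshold and CD44 did not. Other alternatives gave adjusted p of up to 0.411 for ESRP2 and 0.589 for CTNNB1.

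**Figure D5:**
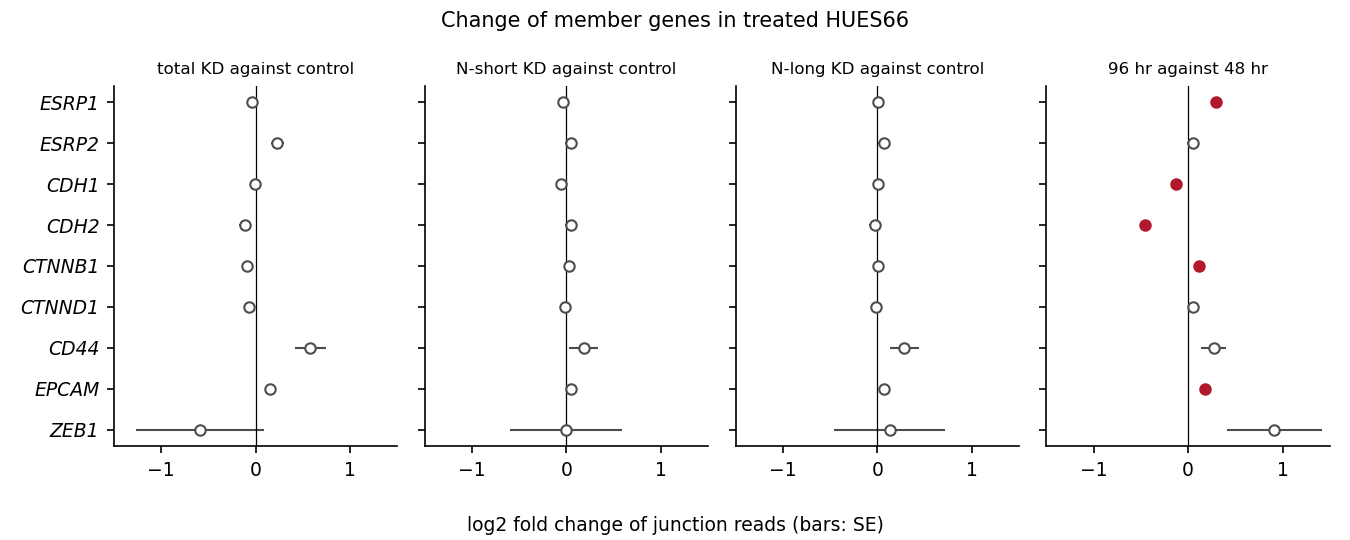
Log2 fold changes of the 9 members tested (edgeR, bars are SE) for the total, N-short and N-long knockdowns against control and for 96 hr against 48 hr; filled red points passed an adjusted p of 0.05. The 5 filled points all lie in the panel for time, and the widest bars are those of ZEB1.

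Among related genes, 2 of 40 epithelial genes passed in the total knockdown, KRT18 (log2 fold change 0.17, SE 0.04, edgeR adjusted p = 0.014) and the desmosomal plaque protein DSP (-0.26, SE 0.05, adjusted p = 0.00175). Of 22 mesenchymal genes, 4 fell in the total knockdown, VIM (-0.37), COL5A1 (-0.29), SPARC (-0.27) and FN1 (-0.20). Over all 13628 genes tested, 300 (2.2%) passed in that contrast, 138 higher and 162 lower. The medians of the lists were 0.03 and 0.00, against 0.00 over all genes. Of 15 cadherin and catenin relatives and of 17 genes with ESRP-responsive exons (which include CD44 and CTNND1), 0 passed in any knockdown contrast.

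Exon use was tested over 6211 cassette exons, 8 of them in members (4 in CTNND1, 2 in ESRP1 and 1 each in ESRP2 and CTNNB1). CD44 exons had too few reads in single libraries. No member exon passed in the total knockdown (1.4% of all exons called), N-short (0.0161%), N-long (0.612%) or N-long against N-short (0.435%). Unadjusted edgeR p was under 0.05 for 1, 3, 2 and 1 member exons in these contrasts, against 482, 262, 339 and 316 of all 6211 exons. With limma on log2 ratios, 0 member exons were called in each. Over all genes limma called 14 exons in the total knockdown and 0 in the other contrasts, so its member counts carry no information. CTNND1 exon C came closest. Its inclusion was 5.71%, 12.2% and 9.43% in the controls at 24, 48 and 96 hr, 3.28%, 4.65% and 6.0% in the total knockdown, and 2.81%, 5.56%, 3.88% and 5.35% in N-long at 24 hr (replicates 1 and 2), 48 and 96 hr. N-short had 6.81%, 1.84%, 8.37% and 8.21% in the same order.

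In every set with a control, exon C inclusion was lower in each knockdown than in the control. The N-long libraries all lay below the lowest control, by a small margin (5.56% against 5.71%), and the ranges of the total and N-short knockdowns overlap that of the controls. The edgeR log2 odds ratios were -1.14 (SE 0.33, adjusted p = 0.0717) in the total knockdown, -1.13 (SE 0.30, adjusted p = 0.0756) in N-long and -0.45 (SE 0.28, adjusted p = 1.0) in N-short. Alternatives gave adjusted p of 0.0171 to 0.623 for total and 0.0058 to 0.83 for N-long. Both passed with wild-type HUES66 as a control (0.0337 and 0.0292) and with exons of a mean of 10 reads included (0.0435 and 0.0367). Without the 24 hr replicate 2 N-long library, both passed again (0.0171 at -1.25 and 0.0058 at -1.46), and N-long also passed without the 96 hr total knockdown (0.0397 at -1.14). In the authors' deposited tables, the difference of control minus knockdown for this exon was positive in each of 9 comparisons, from 0.005 to 0.07 on a scale of fractions, with adjusted p of 0.453 to 1.0. Those tables compare the same samples, and comparisons at the same time share controls. They are therefore not independent of the fits above or of each other. The authors' deposited tables list 93 to 132 events of members each, and 0 of these passed an adjusted p of 0.05 in any of the 9. The smallest was 0.106. Over all genes, 1 to 57 events passed per comparison, of 45022 to 57221 listed. A count of 0 among the members is near that share.

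ESRP1 has variable exons near its 3′ end, a coding exon of 151 bases (chr8:94692677-94692827) and a partly coding exon of 110 bases (chr8:94696852-94696961). Both share the intron that skips them, so they are not independent. As a cassette, each is counted by the junctions that tie it to the exons before and after the pair, against that shared intron (656 reads in the 14 treated libraries). The junction from the upstream exon straight to the 110-base exon (596 reads) skips the 151-base exon but is not counted against it. The junction that joins both exons (1273 reads) is counted for neither. The percentages are therefore not the share of all transcripts that hold an exon. On this measure the treated libraries had 38.1% to 65.8% for the 151-base exon (median 51.9%) and 45.6% to 67.5% for the other (median 57.7%). Wild-type HUES66 had 47.8% and 59.2%. In HEK293, 5 reads skipped both exons and 4 left the 110-base exon for the exon after it. In the N-short knockdown the edgeR log2 odds ratios were -0.73 (SE 0.24, unadjusted p = 0.0032) and -0.75 (SE 0.23, unadjusted p = 0.00183), lower in 3 of 3 sets, and neither held after adjustment over all exons (adjusted p = 1.0 for both).

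Exons of other genes passed in the same fits. The ENAH exon had 76.9%, 83.9% and 72.1% inclusion in the controls and 46.9%, 49.6% and 48.0% in the total knockdown, so the groups lie apart. Its edgeR log2 odds ratio was -1.82 (SE 0.14, adjusted p = 1.95e-14) in the total knockdown and -0.77 (SE 0.13, adjusted p = 0.000143) in N-long. The 36-base exon of MAGI1, a junction scaffold, had 50.0%, 50.0% and 46.7% in the controls and 14.9%, 17.2% and 22.6% in the total knockdown, with -2.12 (SE 0.32, edgeR adjusted p = 3.79e-06), and -1.34 (SE 0.28, adjusted p = 0.00366) in N-long. These were 2 of the 31 exons tested in 14 genes with ESRP-responsive exons, in both contrasts, where 1.4% (total) and 0.612% (N-long) of all exons passed. That gene list was chosen with earlier results of these data known.

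All 124 member introns with enough reads were tested on their own. In the total knockdown 0 passed (0.447% of 120379 introns called). An unadjusted edgeR p under 0.05 was found for 15 member introns and for 9408 of all introns. The 8 EPCAM introns all had positive log2 fold changes (0.06 to 0.23), and 12 of 14 ESRP2 introns did (median 0.30).

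Between 48 and 96 hr, 5 of the 9 members tested passed, 3 higher and 2 lower, against 59.0% of all genes; DESeq2 also called 5. The share of members is thus near that of all genes. ESRP1 rose from 275, 278, 275 and 271 normalised CPM at 48 hr (control, total, N-short, N-long) to 350.5, 338, 323 and 336.5 at 96 hr, so the times do not overlap. CDH2 fell from 96.2, 93.4, 94.7 and 99.2 to 70.4, 61.3, 79.0 and 69.4, again without overlap. The edgeR log2 fold changes were 0.29 (SE 0.03, adjusted p = 1.47e-09) and -0.46 (SE 0.05, adjusted p = 1.1e-09), in the same direction in 4 of 4 pairs.

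EPCAM rose by 0.18 (SE 0.04, edgeR adjusted p = 4.57e-05) and CTNNB1 by 0.11 (SE 0.03, adjusted p = 0.000484) on the log2 scale, in 4 of 4 pairs each. CDH1 fell by 0.13 (SE 0.04, edgeR adjusted p = 0.00396), from 181, 177, 176 and 187.5 to 170, 175, 156 and 161. Without a term for the replicate at 24 hr its adjusted p was 0.152. E-cadherin and N-cadherin reads were thus both lower at 96 hr. ESRP2 (0.05, SE 0.06), CTNND1 (0.05, SE 0.03), CD44 (0.27, SE 0.13, edgeR adjusted p = 0.0775) and ZEB1 (0.91, SE 0.50) did not pass.

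Of 124 member introns, 40 passed between the times (32.2% of all introns did). In CDH2, 12 of 15 introns fell and the 15 had log2 fold changes of -0.79 to -0.35. In ESRP1, 14 of 19 rose and 1 fell, in EPCAM 5 of 8 rose, in CDH1 3 of 15 fell, and in CTNNB1 3 rose and 2 fell of 21. The introns of CTNND1 (14 with positive and 14 with negative log2 fold changes), ESRP2 (8 and 6) and CD44 (2 and 2) were split in sign, and 0 of them passed. Exons were tested too, and 2 of 8 member exons passed, against 17.5% of all exons.

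The 151-base exon of ESRP1 fell from 62.96%, 58.3%, 58.0% and 55.0% at 48 hr to 52.9%, 47.7%, 39.3% and 47.8% at 96 hr (edgeR log2 odds ratio -0.67, SE 0.20, adjusted p = 0.0147). Without the 48 hr N-short library its adjusted p was 0.123, and with limma on log2 ratios it was 0.103. Among the introns around it, the junction from the upstream exon to the 110-base exon, left out of that exon's skipping reads, rose by 1.10 on the log2 scale (SE 0.18, edgeR adjusted p = 2.48e-07), and the junction skipping both exons rose by 0.47 (SE 0.16, adjusted p = 0.0141). A 132-base exon of CTNNB1 that lies outside the coding sequence (chr3:41224190-41224321) fell from 2.46%, 2.73%, 3.88% and 4.12% to 0.908%, 1.85%, 2.17% and 1.83% (edgeR log2 odds ratio -1.0, SE 0.25, adjusted p = 0.00276). In A375 it had 0 inclusion reads against 253 skipping reads, and in HEK293 1 against 249.

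The related genes moved in both directions with time, and over all genes 59.0% passed (3988 higher and 4052 lower). Of 40 epithelial genes, 14 rose and 11 fell, led by the tight junction gene LSR (log2 fold change 0.58), NECTIN3 (0.76), RAB25 (-1.31), DSP (-0.56), AP1M2 (-0.44) and TJP3 (-1.04). Of 22 mesenchymal genes, 2 rose and 13 fell. Vimentin (VIM), an intermediate filament, rose by 2.05 (SE 0.06, edgeR adjusted p = 2.91e-23), while COL1A2 (-0.66), COL5A1 (-0.87), THY1 (-0.47), ITGA5 (-0.68) and AXL (-0.59) fell. Of 15 cadherin and catenin relatives, 3 rose and 6 fell, among them CDH3 (-0.42), CTNNA2 (-1.05) and PKP2 (-0.63), with plakoglobin (JUP) higher (0.41).

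Exons of the genes with ESRP-responsive splicing also passed with time, 4 higher and 4 lower of 31 tested, against 17.5% of all exons. The EXOC7 exons of 93 and 69 bases rose by 26.3 and 13.8 percentage points (SD 4.04 and 3.25 over 4 pairs), and NUMB exons of 144 and 33 bases rose by 15.8 and 12.3 points (SD 12.1 and 10.8). The exons of ENAH (-7.70 points, SD 4.29), RALGPS2 (-9.88, SD 2.52), LRRFIP2 (-9.52, SD 12.8) and a 75-base exon of SCRIB (-12.7, SD 6.05) fell.

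Across the 14 treated libraries, after removal of the mean of each library set, the genes most like ESRP1 by Pearson r of log2(normalised CPM + 1) were PIANP (0.94), SSB (0.925), AHSA1 (0.889), BTF3L4 (0.866) and AK1 (0.861). Those most like CDH1 were SSX2IP (0.918), LCAT (0.89), N4BP2L1 (0.886) and BCAS2 (0.871). ESRP1 and CDH1 had an r of 0.524 with each other, and ESRP1 and ESRP2 one of -0.467. These are descriptions over libraries that share sets and controls, with the highest values picked from 13628 genes.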

How the data were processed

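The members and gene lists were chosen with earlier results of these data known. The junction tables hold raw counts of spliced reads per junction, deposited by the authors; the submitters' processing notes name STAR 2.7.1, SAMtools 1.9 and hg38. The authors' 9 deposited comparison tables give inclusion differences (control minus knockdown, on a scale of fractions) with p-values, per the file headers; 69 per-sample columns in them were not used. Counts on GENCODE 29 introns of 1 gene name were summed per gene (93.35% to 94.76% of junction reads). An exon's inclusion count was the mean of its junctions to the exons at the ends of its most read skipping intron, rounded, and other junctions were left out; tests took exons averaging 20 or more reads in a library and pooled inclusion of 2% to 98%. Counts were fitted with edgeR 4.0.16 in R 4.3.3 (TMM, filterByExpr; terms for library set and knockdown); limma 3.58.1 and DESeq2 1.42.0 served as alternatives. Named genes from the lists were those past the threshold if 6 or fewer, otherwise the 6 of smallest adjusted p with 1 direction in every set, and between lines the 3 highest and 3 lowest ratios with at least 20 reads. On simulated data of the total knockdown, edgeR recovered 64% of gene changes of 0.5 and 82% of 1 on the log2 scale (13628 genes), and 11% and 29% of exon changes of 1 and 2 in log2 odds (6211 exons). Some genes that these rules name are not reported here and were left out of the list counts. Sequences came from GENCODE 29 transcripts. PCR duplicates cannot be identified, so intervals and the limit of 3 reads for a count of 0 cover counting error only. Python 3.11.15 was used.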

Additional observations from a re-analysis of the deposited data

How the results depend on the processing

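Depth limited CD44 splicing in HUES66 (16 and 91 reads leaving exon 5), ZEB1 and ZEB2, and 1 library per line allowed no test between lines.

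Under no replicate block at 24 hr (a term for time alone), the total knockdown called 62 genes and 258 introns in all; N-long called 0 genes and 22 exons, N-long against N-short 0 genes and 15 exons, and N-short 0 exons. CDH1 at 96 against 48 hr was -0.13 there and missed the threshold. With wild-type HUES66 as a control, the total knockdown called 536 genes, 933 introns, 3 member genes, 2 member introns and 1 member exon, N-long 1 member exon, and N-short 1 gene and 0 exons. With constitutive introns, 1 member gene passed in the total knockdown and 1 gene of all in N-short. With no filter on low counts 2 members passed in the total knockdown, and over all genes 4 passed in N-short, 16 in N-long and 17 in N-long against N-short. RLE factors gave 1 gene in N-short, and DESeq2 1 gene in N-long. With a mean of 10 reads per exon, 1 member exon passed in the total knockdown, 1 in N-long, and 6 exons of all in N-short. limma called 14 exons in the total knockdown, 0 in N-short, N-long and N-long against N-short, and 717 with 1 member exon at 96 against 48 hr. Where member calls stand without a total over all genes or exons, that total was of similar size to the main fit. The main fits called 300 genes and 87 exons in the total knockdown, and 38 exons in N-long. The cause of the shifts above was not tested.

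CDH1 in the total knockdown turned from -0.01 to 0.001 with wild-type HUES66 as a control and to 0.0015 with constitutive introns, and ranged from -0.0584 to 0.025 on leaving out 1 library, turning positive without the 24 hr N-long library of replicate 1 (0.0084) or 2 (0.0054), the 96 hr control (0.0129), or the total knockdown at 24 hr (0.011) or 48 hr (0.025). Over the 14 fits that each left out 1 library, calls were 162 to 333 genes and 0 to 2 members (total), 0 to 2 genes (N-short) and 1 to 4 (N-long and N-long against N-short). For 96 against 48 hr they were 7328 to 8082 genes and 5 to 6 members. Leaving out the control at 96 hr gave 162 genes and 52 exons in the total knockdown. Leaving out the total knockdown at 48 hr gave 181 genes and 39 exons, and leaving out the control at 48 hr 190 genes. Exon calls in N-long were 19 without the 48 hr N-long library and 25 without the 48 hr control. Exon calls were 39 to 93 with 0 to 1 members (total), 0 to 3 (N-short), 19 to 42 with 0 to 1 members (N-long), 12 to 30 (N-long against N-short) and 787 to 1085 with 1 to 2 members (96 against 48 hr).

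With the smaller junction of an exon in place of the mean, CD44 v9 was 0.971% in A375 cytoplasmic RNA, and v10 was 14.5%, 15.4% and 4.26% in A375 total, A375 nuclear and HEK293. CTNND1 exon 4 was 69.3% in A375 and 72.7% in HUES66. The CTNND1 exon 3 form tested as a cassette, which begins at the rarest acceptor, was 0.0% in A375, HEK293 and HUES66; its inclusion reads came from the junction downstream, which all forms of exon 3 share. With TMM factors over 19 libraries, 5 members were at least 2-fold higher in HUES66 than in HEK293.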
